A study of Mus musculus with 15 samples.

Results

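The genes described here are 10 inhibitors and effectors that ERK signaling switches on in its own wake: the phosphatases Dusp4, Dusp5 and Dusp6, the Sprouty genes Spry1, Spry2 and Spry4, the SPRED genes Spred1 and Spred2, and the ETS factors Etv4 and Etv5. They were chosen by name as a pathway group, with earlier results of these same data known, and all 10 were found among the 55291 genes of each comparison table. Their values are therefore given as a description, and the counts of members past a threshold support nothing about the pathway.
The libraries came from HY19636 cells, a murine pancreatic ductal adenocarcinoma (PDAC) line labelled p53 mut and established from an engineered mouse whose alleles are recombined by the pancreatic P48-Cre driver. Since every group derives from this line, all samples carry its mutations, controls included. In culture, 3 libraries came from cells given DON, an antagonist of Gln that blocks many Gln-using enzymes, at 25 µM for 24 h, 3 from cells kept without Gln for 24 h (Gln-free cells) and 3 from control cells. In mice, the cells were grown in the pancreata of B6J animals aged 8 to 10 weeks that then received vehicle (3 tumors) or DRP-104, a pro-drug of DON, at 3 mg per kg daily for 2 cycles of 5 days on and 2 days off (3 tumors), with collection at day 21.

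ERK, the last kinase of the RAS-RAF-MEK-ERK cascade, receives signals from growth factor receptors, and it limits itself by raising the transcripts of its inhibitors. DUSP phosphatases remove the activating phosphates from ERK, Sprouty proteins hold back signaling from receptor tyrosine kinases to RAF, and SPRED proteins bring the RAS-inactivating protein neurofibromin to the membrane. ETV4 and ETV5 are PEA3-type ETS activators whose transcripts rise when ERK relieves the repressor CIC, and all of these transcripts are in common use as a transcriptional gauge of ERK output. The contrasts ask how this gauge reads when Gln use is blocked, when Gln is taken away, and when the pro-drug is given to tumors. These transcripts do not measure ERK phosphorylation. The paper reported more phosphorylated ERK protein after DON in this cell line and in DRP-104 tumors. It also reported lower DUSP6 after DON, and cited loss of DUSP6 as a way to ERK activation. How the transcripts relate to ERK activity was not tested here.

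Dusp5, Dusp6 and Spry2 were the members that were lower after DON and higher without Gln, so the 250 bases before their starts are shown first. The sequences are from RefSeq on GRCm38.p6, read 5′ to 3′ on the gene's strand, and the capitals mark CArG boxes, the core letters of the serum response element through which ELK factors and SRF act downstream of ERK.
Dusp5, chr19:53528895-53529144, plus strand: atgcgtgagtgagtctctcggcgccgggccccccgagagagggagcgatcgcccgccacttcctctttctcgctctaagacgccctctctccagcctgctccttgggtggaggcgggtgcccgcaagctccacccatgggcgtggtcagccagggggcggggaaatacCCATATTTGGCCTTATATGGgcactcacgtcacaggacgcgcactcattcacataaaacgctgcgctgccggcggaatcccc
Dusp6, chr10:99262981-99263230, plus strand: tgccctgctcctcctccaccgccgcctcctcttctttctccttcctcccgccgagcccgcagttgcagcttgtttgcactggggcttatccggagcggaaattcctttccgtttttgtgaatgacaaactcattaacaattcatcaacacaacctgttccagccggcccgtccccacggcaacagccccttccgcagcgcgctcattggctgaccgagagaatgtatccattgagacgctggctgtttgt
Spry2, chr14:105896820-105897069, minus strand: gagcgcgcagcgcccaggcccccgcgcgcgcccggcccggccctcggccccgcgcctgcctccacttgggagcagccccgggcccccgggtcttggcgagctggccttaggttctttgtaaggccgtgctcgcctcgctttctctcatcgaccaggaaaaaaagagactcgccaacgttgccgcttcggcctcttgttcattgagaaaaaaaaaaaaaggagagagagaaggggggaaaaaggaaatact
The Dusp5 window held a pair of adjacent CArG boxes, CCATATTTGG at 82 bases and CCTTATATGG at 72 bases before the start, counted to the first base of each. The CArG search was added after these sequences had been seen. Of 32851 promoter windows, reaching from 250 bases before to 50 after each start, 1.63% held a CArG box on either strand. RefSeq windows of 7 members were used (8 windows, Etv5 having 2), and the Dusp5 window was 1 of 8 with such a box. No window of Dusp4, Spry4 or Etv4 was searched as a member window, so the member counts do not cover these genes.
Motifs listed with the design, searched on both strands, were TGAATGNA for CIC (in 3.82% of all windows), TGANTCA for AP-1 (7.81%), TGACGTCA for CRE (1.79%), TGATGNAA for ATF4 (3.97%) and CCGGAAGT for ETS factors (3.89%). None of the 8 member windows held any of these 5 strings of letters. The 250 bases before the start held 21 CpG dinucleotides in Dusp5, 16 in Dusp6 and 23 in Spry2, where the median of all promoters was 6.

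The depth was 25.2 to 48.2 M (mega) reads for the 9 cultures and 16.3 to 20.7 M for the 6 tumors. Of low values, 69.6% to 72.7% in cultures and 41.9% to 46.5% in tumors were even numbers of reads. A read may therefore not be the same unit in cultures and tumors, and the reason was not tested. Values are normalized counts, in which each library's counts were divided by its own size factor. Levels of the 3 culture groups are given on a joint scale, on which the 9 culture libraries share 1 set of size factors, whereas log2 fold changes against control cells come from the deposited table of each comparison, which both hold the same control libraries. A gene was called when its limma p-value, adjusted by Benjamini-Hochberg over all genes tested, was under 0.05. No source used here says that the 3 samples of a culture group were separate experiments, so the SEs and intervals measure the spread between these samples, which may be technical. DRP-104 tumor 3 stood apart from the other tumors. Its 6 T cell markers summed to 1137 normalized counts, against 13.8 to 72.4 in the other 5 tumors, and each member's tumor result that rests on it is given with and without it. Other tumors stood out in markers of normal pancreas. The 5 acinar markers summed to 670 in vehicle tumor 3, against 23.2 to 245 in the other tumors. The 4 islet markers summed to 701 in DRP-104 tumor 1, against 55.4 to 296 in the others.

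After DON, Etv4 and Spry1 fell most, to 0.227 and 0.244 times the control level, and Dusp6 and Etv5 fell to 0.483 and 0.512 times, while Dusp4 rose 3.08-fold. In all, 8 of the 10 members were called, 1 higher (Dusp4) and 7 lower (Dusp5, Dusp6, Spry1, Spry2, Spry4, Etv4 and Etv5). Of all 13556 genes tested, 68.1% were called, 33.3% higher and 34.7% lower, so a call was the usual outcome for a gene in this comparison. The median log2 fold change of the members was -0.49, beside 0.02 for all genes.
Without Gln, 9 of 10 members were called, 5 higher (Dusp4, Dusp5, Dusp6, Spry2 and Spred1) and 4 lower (Spry1, Spred2, Etv4 and Etv5). Of all 13390 genes tested, 69.4% were called, 34.5% higher and 34.9% lower. The median log2 fold change of the members was 0.30, beside 0.01 for all genes.
Set directly against each other on the joint scale, DON and Gln-free cells differed in all 10 members, of which 8 were lower and 2 (Dusp4 and Spred2) higher after DON. Of all 13514 genes, 63.3% were called in this contrast, 31% higher and 32.3% lower after DON. The median log2 difference was -0.87 for the members and -0.01 for all genes.
In tumors, none of the 10 members was called, as 0% of all 15454 genes were (0% higher and 0% lower, limma). An unadjusted limma p-value under 0.05 was found for 775 genes. That is about as many of the 15454 as this cut lets through when no gene differs. None of those 775 was a member. edgeR on the recovered reads also called 0 genes and DESeq2 called 70, with 0 members in either.

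**Figure D1:**
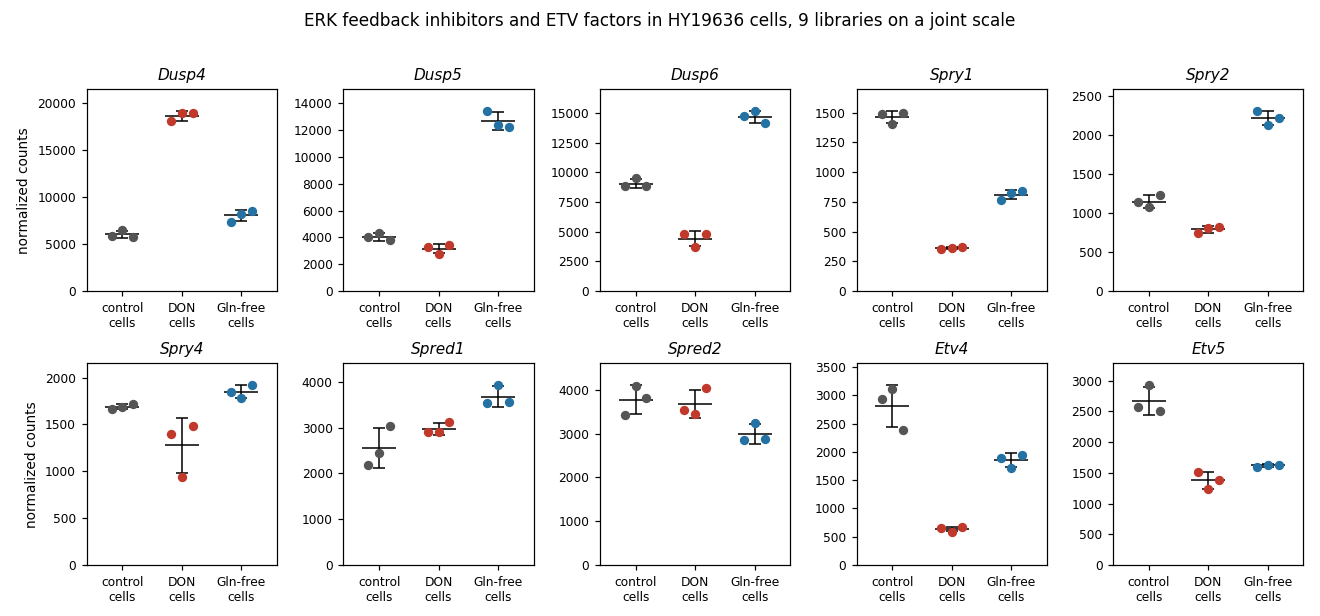
Normalized counts of the 10 genes in control, DON and Gln-free cells (points, 3 libraries a group; bars, mean ± SD; each y axis starts at 0). Dusp4 stands above the other groups after DON, with 18036 to 18951 normalized counts, Dusp5 and Dusp6 stand above them without Gln, and Etv4 and Spry1 are lowest after DON.

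**Figure D2:**
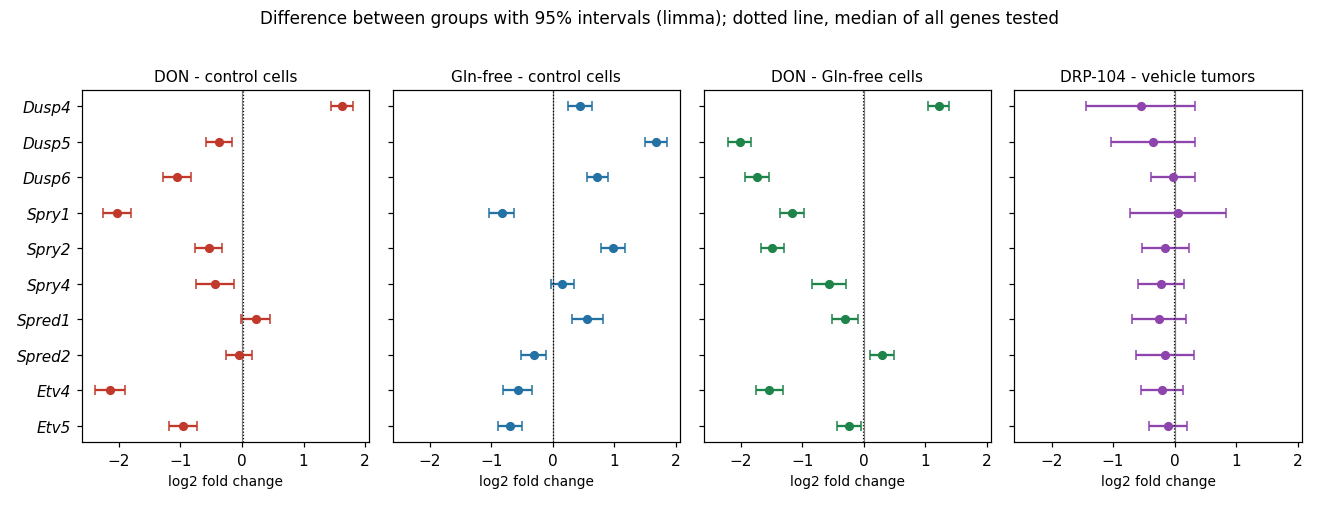
Log2 fold changes of the 10 genes in 4 contrasts, with 95% intervals from limma; the dotted line is the median of all genes tested. The intervals of the members lie on both sides of 0 in culture, and each of the 10 intervals spans 0 in tumors.

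The DUSPs did not move as 1 block. Dusp4 (ENSMUSG00000031530, chromosome 8 from 34807297 to 34819894, plus strand, in GRCm38 like all coordinates below) encodes a nuclear, inducible phosphatase of ERK that also acts on JNK and p38. Its normalized counts were 5807, 6480.15 and 5746 in control cells, 18036, 18951 and 18893 after DON and 7350.5, 8206 and 8529 without Gln. The 3 groups did not overlap, and the DON libraries stood highest. The log2 fold change was 1.62 after DON (SE 0.0869, 95% interval 1.44 to 1.81) and 0.44 without Gln (SE 0.0870, 0.25 to 0.63). In the direct contrast Dusp4 was 1.22 higher after DON on the log2 scale (1.05 to 1.38).

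Dusp5 (ENSMUSG00000034765, chromosome 19 from 53529109 to 53542431, plus strand), the gene with the CArG pair, encodes a nuclear phosphatase that acts on ERK and holds it in the nucleus. Its normalized counts were 4009, 4345 and 3786 in control cells, 3249, 2769 and 3429.8 after DON and 13429, 12364 and 12248 without Gln. Gln-free cells stood far above both other groups, and the DON libraries lay just below the controls without overlap. Its log2 fold change was -0.37 after DON (SE 0.101, -0.59 to -0.16) and 1.67 without Gln (SE 0.0829, 1.49 to 1.85). The direct contrast, DON minus Gln-free, was -2.01 (-2.20 to -1.83), the widest gap of the 10 members. Exons of an antisense gene, AC137853.2, overlap Dusp5, and reads of the pair cannot be told apart because no source used here states that strand was counted.

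Dusp6 (ENSMUSG00000019960, chromosome 10 from 99263231 to 99267488, plus strand) encodes the cytoplasmic phosphatase that is specific for ERK and is often used alone as a readout of ERK activity. Its normalized counts were 8821, 9495 and 8834 in control cells, 4774, 3716 and 4794 after DON and 14737, 15166 and 14150.1 without Gln. The groups were separate and ordered DON, control, Gln-free. Against controls, the log2 fold change was -1.05 after DON (SE 0.105, -1.28 to -0.82) and 0.72 without Gln (SE 0.0775, 0.55 to 0.89). DON and Gln-free cells differed by -1.74 (-1.93 to -1.54).

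Among the Sproutys, Spry1 was lower under both treatments. Spry1 (ENSMUSG00000037211, chromosome 3 from 37639947 to 37644598, plus strand) had 1491, 1403 and 1494 normalized counts in control cells, 350.4, 359 and 366 after DON and 764, 827 and 837 without Gln. The 3 groups were separate and narrow, with DON lowest. The log2 fold change was -2.03 after DON (SE 0.106, -2.26 to -1.81) and -0.83 without Gln (SE 0.0947, -1.04 to -0.63), and the direct difference was -1.17 (-1.37 to -0.97). An unclassified transcript on the other strand, Gm42922, has exons within Spry1, so its reads may be included.

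Spry2 (ENSMUSG00000022114, chromosome 14 from 105891949 to 105896819, minus strand) encodes a Sprouty known for restraining FGF receptor signals. It had 1138, 1074 and 1232 normalized counts in control cells, 745, 807 and 822 after DON and 2312, 2129.6 and 2215 without Gln. As for Dusp6, the groups were separate, with DON lowest and Gln-free highest. Its log2 fold change was -0.54 after DON (SE 0.105, -0.77 to -0.32) and 0.97 without Gln (SE 0.0929, 0.77 to 1.18), and the direct difference was -1.49 (-1.67 to -1.30).

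Spry4 (ENSMUSG00000024427, chromosome 18 from 38586268 to 38601268, minus strand) moved least of the Sproutys. Control cells had 1660.2, 1686 and 1715 normalized counts, DON cells 1402, 944 and 1483 and Gln-free cells 1842, 1783 and 1922. DON library 2 was the lowest by far, and the groups were otherwise close. Against controls, the log2 fold change was -0.44 after DON (SE 0.143, -0.75 to -0.13). Without DON library 2 it was -0.23 and no longer passed (adjusted p = 0.0768, limma). Without Gln it was 0.15 (SE 0.0848, -0.03 to 0.34), which did not pass, although the 3 Gln-free values lay above the 3 control values. DON minus Gln-free was -0.56 (-0.84 to -0.28).

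The SPREDs were the members that were not called after DON. Spred1 (ENSMUSG00000027351, chromosome 2 from 117121374 to 117182279, plus strand), whose loss in people causes a RASopathy, had 2188, 2449 and 3028 normalized counts in control cells, 2898, 2907 and 3119.5 after DON and 3534, 3935 and 3560.1 without Gln. Control library 3 reached into the DON range, and the Gln-free libraries stood above all others. The log2 fold change after DON was 0.22 (SE 0.111, -0.02 to 0.46), which did not pass, and without control library 3 it was 0.35 and passed. Without Gln it was 0.56 (SE 0.115, 0.31 to 0.81). DON minus Gln-free was -0.30 (-0.52 to -0.09), a call that ended when DON library 1 (adjusted p = 0.0566), DON library 2 (0.0503) or Gln-free library 2 (0.0798) was left out (limma). With quantile normalization that difference was -0.19 (adjusted p = 0.1101, limma).

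Spred2 (ENSMUSG00000045671, chromosome 11 from 19924375 to 20024026, plus strand) had 3423, 4095 and 3808 normalized counts in control cells, 3535, 3459 and 4046 after DON and 2851, 3249.8 and 2869 without Gln. DON and control libraries overlapped throughout, and the Gln-free libraries lay below both. The log2 fold change was -0.05 after DON (SE 0.0978, -0.26 to 0.16), which did not pass and was 0.07 with quantile normalization, and -0.31 without Gln (SE 0.0937, -0.52 to -0.11). DON minus Gln-free was 0.30 (0.11 to 0.49), with an adjusted p of 0.0597 (limma) when DON library 3 was left out.

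Both ETV factors fell under both treatments. Etv4 (ENSMUSG00000017724, chromosome 11 from 101769742 to 101785371, minus strand) had 2931, 3108 and 2391 normalized counts in control cells, 655, 593 and 664 after DON and 1884, 1713 and 1952 without Gln. The groups were separate, and the DON libraries were lowest. Its log2 fold change was -2.14 after DON (SE 0.115, -2.39 to -1.89) and -0.57 without Gln (SE 0.106, -0.80 to -0.34), and the direct difference was -1.54 (-1.75 to -1.32).
Etv5 (ENSMUSG00000013089, chromosome 16 from 22381309 to 22439719, minus strand), the close relative of Etv4, had 2566, 2929 and 2503 normalized counts in control cells, 1505, 1237 and 1385 after DON and 1598, 1631 and 1628 without Gln. Here the DON and Gln-free libraries lay close together, both below the controls. Against controls, the log2 fold change was -0.96 after DON (SE 0.105, -1.19 to -0.74) and -0.69 without Gln (SE 0.0889, -0.89 to -0.50). DON minus Gln-free was -0.24 (-0.43 to -0.04), and its call ended under several settings, among them edgeR on recovered reads (adjusted p = 0.0527) and quantile normalization (-0.16, adjusted p = 0.1301, limma). It also ended in limma fits without DON library 2 (adjusted p = 0.156) or 3 (0.0617) and without Gln-free library 1 (0.0614), 2 (0.0808) or 3 (0.0730).

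By direction of the calls in both culture comparisons, 1 gene was higher under both treatments (Dusp4), 3 were lower under both (Spry1, Etv4 and Etv5) and 3 were lower after DON and higher without Gln (Dusp5, Dusp6 and Spry2). The other 3 were called in a single comparison: Spry4 lower after DON, Spred1 higher and Spred2 lower without Gln. These comparisons share the control libraries, so their values stand side by side and no overlap is tested. Of all genes tested, 68.1% were called after DON and 69.4% without Gln. The share of all genes in each joint pattern was not counted, so the patterns describe these members alone.
Beside these shifts, the 6 ductal epithelial markers (Epcam, Krt7, Krt8, Krt18, Krt19 and Cdh1) were all called lower under both treatments. Their sum was 393347 to 511169 normalized counts in control cells and 116931 to 125209 after DON, and, in the table of the other comparison, 379354 to 481740 in control cells and 158259 to 173641 without Gln. Their part in the values of the 10 genes was not tested. On the joint scale the 7 fibroblast markers summed to 471 to 629.98 normalized counts in control cells, 121 to 157 after DON and 1076 to 1123 without Gln. Nearly all of this was Pdgfra, which was called lower after DON (log2 fold change -1.96, SE 0.164) and higher without Gln (1.07, SE 0.119), each within its own table, while the defining Col1a2, Dcn, Lum and Pdgfrb were at 0 in all control libraries. The 6 macrophage markers summed to 63.9 to 95.05 in control cells, 788 to 835 after DON and 19.9 to 39.1 without Gln, mostly from the lysosomal gene Cd68, which was called higher after DON (3.66) and lower without Gln (-1.11), and Adgre1 and C1qb were at 0 in all control libraries. The 5 endothelial markers summed to 58.5 to 121 in control cells, 18.2 to 26.4 after DON and 39.1 to 53.7 without Gln. The 6 T cell markers summed to 35.8 to 51.2, 38.0 to 49.2 and 93.0 to 132 in the same order, with Lck called higher without Gln (1.48) and Cd3d, Cd3e, Cd3g and Cd4 at 0 in all 9 libraries. The 4 islet markers were at 0 throughout. Pdgfra, Cd68 and Lck were singled out after their values were seen, and the part of these genes in the values of the members was not tested.

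The tumor libraries gave wider intervals. Bulk tumors also hold host cells, and fewer cells of a type and less RNA per cell cannot be told apart. Dusp4 had 2645, 3341 and 3473 normalized counts in vehicle tumors and 2533, 3561 and 1084 in DRP-104 tumors. The groups overlapped, with DRP-104 tumor 3 lowest. The log2 fold change was -0.55 (95% interval -1.44 to 0.34) and, without DRP-104 tumor 3, -0.06.
Dusp5 had 4063, 7271 and 5792 normalized counts in vehicle tumors and 5381, 5342 and 2872 in DRP-104 tumors. Again DRP-104 tumor 3 was lowest and the other values overlapped. Its log2 fold change was -0.35 (-1.03 to 0.33), and -0.05 without that tumor.
Dusp6 was the steadiest DUSP, with 4958, 6419 and 5214 normalized counts in vehicle and 5501, 4942 and 5778 in DRP-104 tumors, ranges that overlapped. Its log2 fold change was -0.03 (-0.38 to 0.33).

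Spry1 had 1633, 1189 and 756 normalized counts in vehicle tumors and 941, 961 and 1822 in DRP-104 tumors. Here DRP-104 tumor 3 was the highest of the 6. Against vehicle, the log2 fold change was 0.06 (-0.72 to 0.83), and -0.26 without that tumor. Spry2 had 843, 1154 and 1153 normalized counts in vehicle and 919, 979 and 905 in DRP-104 tumors, with a log2 fold change of -0.15 (-0.54 to 0.23). Spry4 had 1219.9, 1155 and 931 in vehicle and 865, 1049 and 923 in DRP-104 tumors, with -0.22 (-0.59 to 0.16). Both groups overlapped for Spry2 and for Spry4.

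Spred1 had 3320.0, 3623 and 3539 normalized counts in vehicle tumors and 3434, 3335 and 2193 in DRP-104 tumors, and Spred2 had 2802, 3369 and 3359 and then 3251, 3372 and 2090.3. For both SPREDs the lowest library was DRP-104 tumor 3, and the rest overlapped. For Spred1 the log2 fold change was -0.25 (-0.69 to 0.18) and -0.05 without that tumor. For Spred2 it was -0.16 (-0.63 to 0.31), and 0.06 without it.
Etv4 had 1507, 1975 and 1803 normalized counts in vehicle tumors and 1473, 1641 and 1464 in DRP-104 tumors, overlapping groups with a log2 fold change of -0.20 (-0.54 to 0.14). DRP-104 tumor 3 was narrowly the lowest here too, and without it the value was -0.17. Etv5 had 1129, 994 and 1008 in vehicle and 1004, 944 and 961 in DRP-104 tumors. These also overlapped, and the log2 fold change was -0.10 (-0.41 to 0.20).

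**Figure D3:**
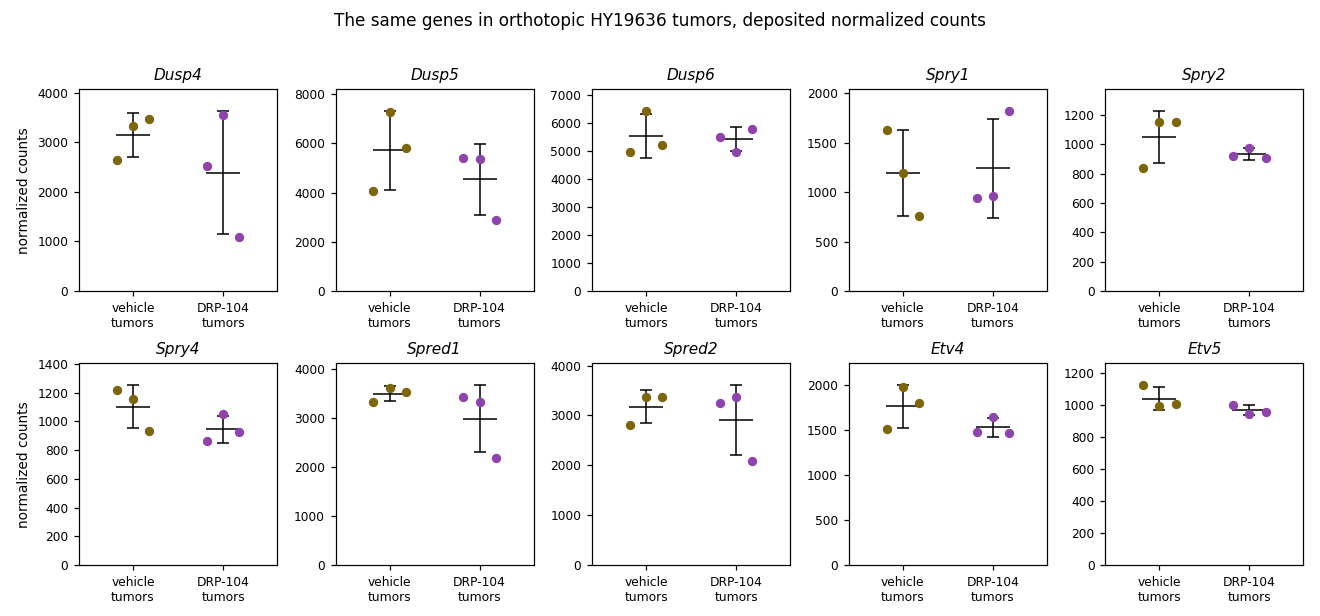
Normalized counts of the 10 genes in vehicle and DRP-104 tumors (points, 3 tumors a group; bars, mean ± SD; each y axis starts at 0). The groups overlap for every gene, and the third DRP-104 tumor is the lowest of the 6 for Dusp4, Dusp5, Spred1, Spred2 and Etv4 and the highest for Spry1.

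The median log2 fold change of the members in tumors was -0.18, beside -0.01 for all genes, with 9 of the 10 values below 0 and 1 above. All of these include DRP-104 tumor 3. Without that tumor Dusp4 was at -0.06, Dusp5 at -0.05 and Spred1 at -0.05, while Spred2 turned to 0.06 and Spry1 to -0.26. Dusp6 (-0.08), Spry2 (-0.13), Spry4 (-0.20), Etv4 (-0.17) and Etv5 (-0.10) stayed below 0. The 7 fibroblast markers summed to 39031 to 82817 normalized counts in vehicle tumors and to 32268, 22780 and 18469 in DRP-104 tumors 1, 2 and 3. All 7 had log2 fold changes below 0, and none was called (smallest adjusted p 0.916, limma). Macrophage markers summed to 3756 to 4755 in vehicle and 2602 to 6968 in DRP-104 tumors, and ductal epithelial markers to 116747 to 161328 and 130197 to 173678. The 5 endothelial markers summed to 1800.03 to 2046 in vehicle and 1122 to 1559.6 in DRP-104 tumors, which did not overlap, and all 5 had log2 fold changes below 0, none of them called (adjusted p from 0.916 to 0.967, limma). Their part in the members' values was not tested.
A separate table of FPKM, a level per gene length and library size, holds 3 columns for each tumor group. Its columns did not follow the like-numbered tumors: over 10277 genes, deviations from the gene means correlated at -0.23 to 0.09 between like-named columns. None of its columns showed the T cell signal of DRP-104 tumor 3, the highest Cd8a value being 0.115 FPKM, so that no column was tied to a tumor. On this table the direction of 7 of the 10 members turned, and 0 of 10 were called. The log2 fold change on FPKM was 0.16 for Dusp4 (-0.31 to 0.64), 0.34 for Dusp5 (-0.25 to 0.92) and -0.22 for Spry1 (-0.66 to 0.23), and it stayed below 0 for Spry4 at -0.25 (-0.55 to 0.05), Spred1 at -0.16 and Etv4 at -0.12.

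Whether the effect of the pro-drug in tumors differed from that of DON in cells was tested as an interaction over 12 libraries. It was called for 5 of 10 members, 4 with a more positive effect in tumors (Spry1, Etv4, Dusp6 and Etv5) and 1 with a more negative one (Dusp4). Of all 15070 genes tested, 33.1% were called, 19.1% more positive and 14% more negative. The difference was 2.09 on the log2 scale for Spry1 (1.29 to 2.89), 1.94 for Etv4 (1.53 to 2.35), 1.02 for Dusp6 (0.62 to 1.42), 0.86 for Etv5 (0.51 to 1.21) and -2.17 for Dusp4 (-3.09 to -1.26). Without DRP-104 tumor 3 the same 5 were called, with -1.68 for Dusp4 and 1.78 for Spry1. For Dusp5, Spry2, Spry4, Spred1 and Spred2 the difference did not pass, with values from -0.48 (Spred1, -0.97 to 0.02) to 0.39 (Spry2, -0.02 to 0.80). Dose, exposure time and host all differ between the arms and cannot be told apart from the compound.

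Levels per gene length, in reads per kilobase and per M reads (RPKM), set the members beside each other. In control cells Dusp6 was highest at 100.1 ± 4.13 (SD, n = 3), followed by Dusp4 at 67.8 ± 3.62, Dusp5 at 50.5 ± 2.11, Etv4 at 36.2 ± 3.42, Spred2 at 26.3 ± 2.61 and Etv5 at 20.7 ± 1.37. Below them the ranges of neighbors overlapped, from Spry2 (17.1 ± 1.91) through Spry1 (16.3 ± 1.13) and Spred1 (13.2 ± 2.80) to Spry4 (11.4 ± 0.659). The phosphatases thus led the group before any treatment.
After DON, Dusp4 was the most abundant member at 231 ± 7.06, ahead of Dusp6 (53.8 ± 7.70) and Dusp5 (43.2 ± 4.93), whose ranges overlapped. Next came Spred2 at 28.1 ± 2.64 and Spred1 at 16.8 ± 0.826. The ranges from Spry2 (12.9 ± 0.716) through Etv5 (11.7 ± 1.16) and Spry4 (9.45 ± 2.19) to Etv4 (9.03 ± 0.598) overlapped between neighbors, and Spry1 was last at 4.39 ± 0.124. Etv4 thus went from rank 4 to rank 9.
Without Gln, Dusp6 (178 ± 5.04) and Dusp5 (173 ± 7.91) overlapped at the top, above Dusp4 (99.1 ± 8.21) and Spry2 (36.0 ± 1.44). Etv4 (26.1 ± 1.88), Spred2 (22.7 ± 1.66) and Spred1 (20.7 ± 1.22) overlapped from neighbor to neighbor, as did Etv5 (13.8 ± 0.238) and Spry4 (13.6 ± 0.616), and Spry1 was again last at 9.87 ± 0.544.
In vehicle tumors Dusp5 (123 ± 31.0) and Dusp6 (106 ± 12.2) overlapped at the top, followed by Dusp4 (61.4 ± 6.90). Etv4 (39.2 ± 4.03) and Spred2 (38.1 ± 2.70) overlapped, Spred1 had 31.0 ± 0.354, and the ranges from Spry2 (26.8 ± 3.79) through Spry1 (23.2 ± 9.19) and Etv5 (14.1 ± 1.498) to Spry4 (12.9 ± 2.04) overlapped between neighbors. In DRP-104 tumors the order was Dusp6 (102 ± 10.4), Dusp5 (96.2 ± 28.0), Dusp4 (45.8 ± 23.6), Spred2 (34.3 ± 7.50), Etv4 (33.7 ± 2.65), Spred1 (26.1 ± 5.22), Spry1 (23.9 ± 10.7), Spry2 (23.7 ± 1.34), Etv5 (12.9 ± 0.381) and Spry4 (10.9 ± 1.31). Neighbors from Dusp6 to Etv4 and from Spred1 to Spry2 overlapped there.

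**Figure D4:**
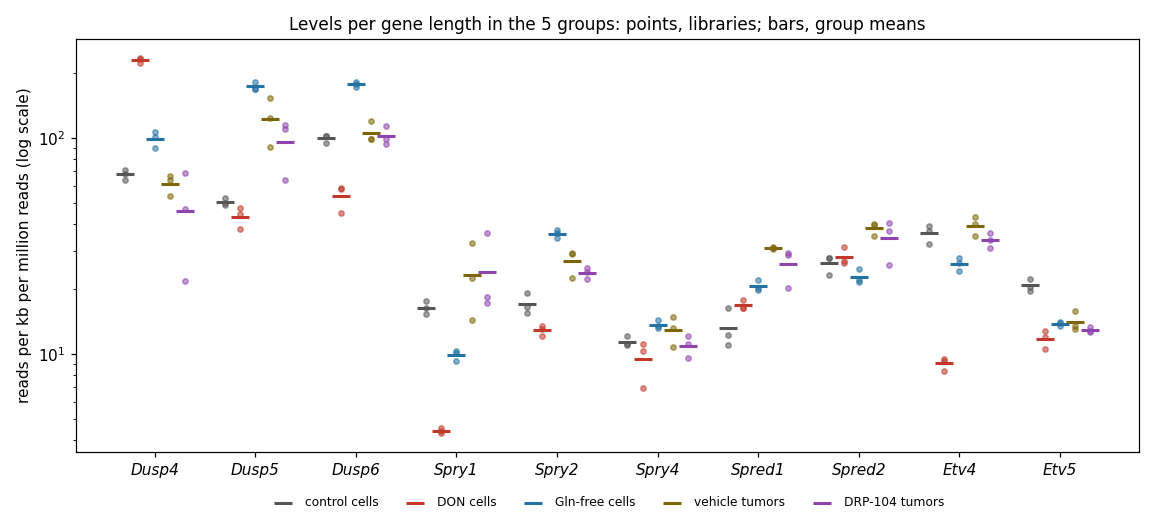
RPKM, reads per kilobase of gene length and per M reads (log axis), for the 10 genes in the 5 groups (points, 3 libraries a group; bars, group means). The DUSPs lead in each group, Dusp4 reaches 231 after DON, and Spry1 is lowest after DON at 4.39.

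The genes whose levels followed each member most closely over the 9 culture libraries were taken from 10431 genes with a mean of at least 100, by Pearson r of log2 values on the joint scale. These r values mostly carry the 3 group means and describe likeness. For Dusp4 they were Ctns (0.996), Hexa and Scpep1 (both 0.993), and for Dusp5 they were Epha2, Dll1 (both 0.997) and Slc14a1 (0.995). For Dusp6 they were Slc27a6 (0.995), Rbpj (0.994) and Gcnt2 (0.993).
Spry1 was followed by Tshz2 (0.998), Plekha6 and Net1 (both 0.997), Spry2 by Styk1 (0.997), Prpsap2 (0.996) and Rbm28 (0.995), and Spry4 by Egr3 (0.972), Armh3 (0.959) and Mast4 (0.944). The genes nearest to Spred1 were Wasl (0.994), Itgb1 (0.985) and Usp53 (0.981), and to Spred2 Fam160b2 (0.9752), Plagl2 (0.953) and Epb41l1 (0.948). Etv4 was nearest to Tinagl1 (0.998), Eya2 and Ier3 (both 0.997), and Etv5 to Slc25a23, Dll4 (both 0.995) and Irf1 (0.993). Epha2 and Ier3 are also on the list of other ERK output genes below.

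Other genes of the pathway were taken from lists that were drawn up with the earlier results known. Their counts stand beside shares of all genes called of 68.1% after DON, 69.4% without Gln and 63.3% between DON and Gln-free cells. A call was thus the usual outcome for any gene, and the list counts support nothing about the pathway. Among 11 tested negative regulators of RAS-ERK outside the 10 members (Spry3 was not tested), 8 were called after DON, 1 higher and 7 lower, with a median log2 fold change of -0.38. Spred3, of the SPRED family, fell from 725 to 140 mean normalized counts (log2 fold change -2.43, SE 0.209), and Dusp7, another cytoplasmic ERK phosphatase, from 2838 to 1142 (-1.32, SE 0.111). Without Gln 9 were called, 4 higher and 5 lower, with a median of 0.00. Il17rd, a membrane inhibitor of FGF signaling, fell from 334 to 59.2 (-2.51, SE 0.209), and Rasa1, a GTPase-activating protein for RAS, rose from 1008 to 2481 (1.35, SE 0.172). Between DON and Gln-free cells 10 of 11 differed, 3 higher and 7 lower after DON. Errfi1, the feedback inhibitor of EGF receptors, had 7658 after DON and 28494 without Gln (-1.90, SE 0.0753), and Il17rd 266 and 59.9 (2.16, SE 0.191).

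The other MAP kinase phosphatases, most of which act mainly on JNK and p38, showed a further pattern. Of 4 tested, 3 were called after DON (2 higher, 1 lower) and 4 without Gln (3 higher, 1 lower), with medians of 0.95 and 1.04. Among all genes 68.1% and 69.4% were called, and 63.3% in the direct contrast. Dusp10 rose from 888 to 2713 mean normalized counts after DON (1.61, SE 0.0954) and from 844 to 4028 without Gln (2.26, SE 0.0875). Dusp8 rose from 77.1 to 237 after DON (1.61, SE 0.241) and from 73.2 to 176 without Gln (1.28, SE 0.217). Between DON and Gln-free cells 2 of 4 differed, both lower after DON: Dusp10, at -0.61 (SE 0.0776), and Dusp16, at -0.48 (SE 0.121).

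Other ERK output genes were called in 11 of 11 cases after DON, 4 higher and 7 lower, with a median of -0.65. Without Gln 10 of 11 were called, 8 higher and 2 lower, with a median of 1.43. The share of all genes called was 68.1% after DON, 69.4% without Gln and 63.3% in the direct contrast. After DON, Lif, a cytokine of the IL-6 family, fell from 996 to 129.7 mean normalized counts (-2.99, SE 0.215) and Phlda1 from 2458 to 575 (-2.09, SE 0.102). Without Gln, Myc rose from 4016 to 22613 (2.49, SE 0.0802) and Egr1, an immediate early zinc finger factor, from 307 to 1190.5 (1.94, SE 0.143). Between DON and Gln-free cells all 11 tested differed, 10 lower and 1 higher after DON, with Lif at -3.58 (SE 0.192) and Phlda1 at -3.49 (SE 0.0863).

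Of 9 ERK-linked ETS factors and repressors, 5 were called after DON, 1 higher and 4 lower, with a median of -0.22. Without Gln 6 were called, 3 higher and 3 lower, with a median of -0.12. The shares of all genes called were 68.1% and 69.4%, and 63.3% in the direct contrast. Elk3, an ETS partner of SRF, fell from 4178 to 1358 after DON (-1.62, SE 0.0903), and the ETS repressor Erf from 4296 to 1966 (-1.12, SE 0.0939). Ets1 rose from 2069.8 to 4688 (1.18, SE 0.0891) and Etv3 from 1388 to 3134 (1.18, SE 0.0958) without Gln. Between DON and Gln-free cells 7 of 9 differed, 2 higher and 5 lower after DON, with Ets1 at -1.20 (SE 0.0822) and Etv3 at -0.996 (SE 0.0863).
The 15 genes of the cascade itself split more evenly. After DON 5 were higher and 7 lower (median -0.17), and without Gln 5 were higher and 5 lower (median 0.09). Between the treatments 5 were higher and 6 lower after DON (median 0.04). Among all genes 33.3% were higher and 34.7% lower after DON, and 34.5% and 34.9% without Gln. Between the treatments these shares were 31% and 32.3%. Ksr1, a scaffold of RAF, MEK and ERK, fell to 450 mean normalized counts after DON (-2.08, SE 0.104) and to 703 without Gln (-1.36, SE 0.0932). Mapk3, which encodes ERK1, fell by 1.19 (SE 0.104) and by 1.88 (SE 0.109). Shoc2, a scaffold that helps to activate RAF, had 1893 after DON and 3329 without Gln on the joint scale, a difference of -0.82 (SE 0.120). In tumors 0 genes of these 5 lists were called, as 0% of all genes were. The median log2 fold change there was -0.17 for the negative regulators and -0.22 for the other MAP kinase phosphatases, of which 5 were tested in tumors. It was -0.07 for the ERK output genes, -0.23 for the ETS factors and -0.04 for the cascade. These medians include DRP-104 tumor 3 and were not computed without it.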

How the data were processed

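RNA-seq of 15 samples in 5 groups of 3 was used. Per the study's methods, Novogene made the libraries, aligned reads with HISAT2 and ran DESeq2. The submitters' processing notes also name STAR 2.5, CASAVA and the build GRCm39, but gene coordinates in the authors' FPKM table follow GRCm38. The deposited signal in each comparison table is the gene count divided by 1 size factor per library, and dividing by the worth of 1 read returned whole reads (tolerance 0.0051) for at least 99.9866% of values. The authors' FPKM table, normalized for length and depth, holds tumors and no cells. The counting tool and strand are not given in the sources used here. Control cell columns carry the tumor vehicle prefix (HY19_VEH) and were taken as control cells because those tables are named for them. Their reads were the same in both culture tables for 55291 of 55291 genes, and 0 columns of per-sample values stayed unmapped.

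limma 3.58.1 (lmFit, eBayes with trend, R 4.3.3) tested log2(value + 1), a scale that understates changes of low genes, over genes with a mean of at least 10, two-sided, each fit holding just the 6 libraries compared. The contrast of DON with Gln-free cells used recovered reads of the 9 cultures with median-of-ratios size factors in 1 fit of 3 groups. The interaction used 12 libraries on the deposited values. The members and lists were chosen with earlier results of these data known. All 10 members were named, and of each other list at most 2 genes per comparison, those with the largest absolute log2 fold change among called genes with groups that did not overlap. A gene that this rule names is not reported here. Alternatives were no filter on low values, a pseudocount of 8, quantile normalization, edgeR 4.0.16 and DESeq2 1.42.0 on recovered reads, halved reads, TMM factors, the treated libraries alone for the direct contrast, the FPKM table, a replicate block and leaving out each library. Limma array weights with separate variances for cells and tumors, and the CArG search, were added after seeing the data. Halved reads were tried because 69.6% to 72.7% of low values in cultures, against 41.9% to 46.5% in tumors, were even numbers of reads. The fits were tested on simulated data before use. Read counts without molecular identifiers are not independent molecules. Python 3.11 (pandas 2.3.3, numpy 2.4.6, matplotlib 3.10.9) served for tables and plots. Protein sequences were not analysed here.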

Additional observations from a re-analysis of the deposited data

Results flagged for a closer look

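The difference between the effect of DRP-104 in tumors and that of DON in cells passed the interaction test (limma, adjusted p under 0.05) for 5 of the 10 genes. It also passed for 33.1% of all 15070 genes tested. Among the members, the difference was 2.09 on the log2 scale for Spry1, 1.94 for Etv4, 1.02 for Dusp6 and 0.86 for Etv5. Each of these was lower in the 3 DON libraries than in the 3 control libraries and overlapped between the tumor groups. The libraries of a culture group may be technical replicates. For Dusp4, which was higher in the 3 DON libraries than in the 3 control libraries, the difference was -2.17. All 10 genes were chosen with the culture results known, so these values describe the members. With separate variances for cells and tumors, added after seeing the data, the count was also 5.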

How the results depend on the processing

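The count of members called was 9 under each of 13 alternatives without Gln, 7 to 9 after DON, 8 to 10 between DON and Gln-free cells, 0 in tumors and 5 for the interaction. Counts over all genes stayed within 1.5 times, except that DESeq2 called 70 genes in tumors where limma called 0. The 10 members of the Gln-free comparison kept their direction and side of the threshold in all 130 refits, and those between DON and Gln-free cells in 166 of 180, with 14 losing a call (Etv5, Spred1 or Spred2) and 0 turning. After DON, 124 of 130 refits changed nothing, Spry4 lost its call in 1, Spred1 gained one in 2, and Spred2, not called, turned with quantile normalization (0.0687), with edgeR on halved reads (0.00268) and when libraries were left out (-0.117 to 0.0153).
In tumors, where no member was called, the FPKM table turned Dusp4 (0.16), Dusp5 (0.34), Dusp6 (0.0240), Spry1 (-0.22), Spry2 (0.0384), Spred2 (0.0674) and Etv5 (0.0124), and quantile normalization turned Dusp6 (0.0136). The FPKM columns could not be tied to the counted tumors and may hold other tumors. Other tumors and other processing therefore cannot be told apart in the FPKM values. Leaving out libraries gave -0.101 to 0.0855 for Dusp6, -0.26 to 0.32 for Spry1 and -0.280 to 0.0648 for Spred2. In the interaction, Dusp5 was -0.0561 with quantile normalization and -0.20 to 0.32 when libraries were left out, and Spred2 -0.23 to 0.11. The cause was not tested. The median log2 ratio of vehicle tumors to control cells over the 10 levels per length was 0.57, and 0.39 with size factors over the 15 libraries. Quantile normalization moved the median of all genes after DON from 0.02 to 0.13. The number of CArG windows did not change when the 50 bases after the start were left out.
Replicate numbers did not pair the samples: deviations of like-numbered libraries correlated at -0.03, -0.04 and 0.05 for DON and controls, at 0.13, -0.12 and -0.13 for Gln-free and controls and at -0.44, 0.05 and -0.46 in tumors. With the replicate block 9216 genes were called after DON, 9056 without Gln, 0 in tumors, 8456 between DON and Gln-free cells and 4075 in the interaction, and the members called were 8, 9, 0, 10 and 5. With 3 libraries a group, the members' tumor intervals reached from -1.44 (Dusp4) to 0.83 (Spry1) on the log2 scale.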
